A study of Bos taurus with 15 samples.

Results

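Mammary tissue collected 72 h after dexamethasone (DEX) was compared with tissue collected from the same cows at 0 h. The comparison took every library of the cows that had been sampled at both time points, which were cows 2, 3 and 4, so 6 of the 15 libraries of the study were compared, 3 at each time point. The test reported first was fitted on the 12 libraries of these cows at all 4 time points and allowed for a correlation within cows, which was estimated at 0.0179, so it made little use of the pairing. A test of the 6 libraries paired by cow is given beside it. Its p-values rest mainly on a variance shared by genes of the same abundance, a limit taken up below with its calls. The animals were non-pregnant Holstein cows in the second lactation. Each received a single intramuscular injection of 40 mg of DEX in the evening, immediately after the 0 h biopsy. The 0 h tissue is therefore pre-treatment tissue, although its label also reads dexamethasone, and it came from the left rear gland (QTR1). The 72 h tissue came from the right rear gland (QTR4). Both are rear glands and both were sampled at about the same clock time, but time since DEX and the gland sampled changed together in all cows and cannot be told apart. No untreated cows were sampled. All cows had been biopsied in other glands at 12 and 24 h and had received prophylactic ampicillin. Each library came from 1 gland at 1 time point, so the spread between glands of a cow at a single time was not measured. Cow 1 was sampled at 0, 12 and 24 h and entered this comparison in 1 alternative only.

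Dexamethasone is a synthetic glucocorticoid (GC). It binds the glucocorticoid receptor, a transcription factor that moves to the nucleus and raises or lowers the transcription of its target genes, and part of the response fades once the hormone has been cleared. In the lactating mammary gland, endogenous GC act with prolactin to maintain the transcription of milk protein genes in the secretory epithelium, whereas a large acute dose of GC is known to depress milk yield for a time. The question addressed by the 72 h biopsy was which expression differences remained once that period had passed, and, where none was called, how large a difference could have been missed.

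The 0 h libraries of cows 2, 3 and 4 held 4605321, 3471164 and 1804120 reads on genes, and the 72 h libraries held 2360591, 5685741 and 3740033. Cow 4 at 0 h was the shallowest library of the study, with a read on 8905 genes against 9513 to 10642 in the other 5 libraries, and its limit for a gene with no read was 1.737 normalized counts against 0.464 to 1.22. The unit throughout is the normalized count, which is CPM multiplied by a scaling factor that the authors gave each library. Log2 profiles of the same cow at 0 and 72 h correlated with r = 0.976, 0.977 and 0.941 for cows 2, 3 and 4, across the 1651 genes whose mean reached 20 normalized counts, as a description only. The file lists genes by Ensembl identifier without names and 0 identifiers could be matched to a symbol, so the tissue could not be checked against its marker genes and only a few identifiers are given.

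No gene differed between 0 and 72 h at an adjusted p under 0.05 in limma, which is 0% of the 13525 genes tested, and the smallest adjusted p was 0.494. At an unadjusted p under 0.05 there were 931 genes (6.88%), of which 505 were higher (3.73%) and 426 lower (3.15%) at 72 h. Other tests of the same comparison called genes. These were 3 genes (0.0222%) with cow as a fixed term in limma over the 12 libraries, 66 genes (0.523% of 12619) with the 6 libraries alone paired by cow in limma, 55 genes (0.407%) in edgeR and 27 genes (2.25% of the 1201 given an adjusted p) in DESeq2. The edgeR and DESeq2 models also held cow as a fixed term over the 12 libraries. Cow 4 had the largest ratio of the cows in 43 of the 55 genes and in 19 of the 27. Of 27 alternatives tried, 15 called 0 genes and the others did not. In bulk tissue, fewer cells of a type and less RNA per cell cannot be told apart in any of the differences given here.

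The size of change that this test could call in a gene passing alone was large. Genes that pass together can do so at smaller sizes. The sizes apply to the estimate, so a true change of the same size could still be missed. A gene that alone passed the threshold needed an unadjusted p of 3.7e-06, and from the standard error of each gene the median gene needed a 4.37-fold difference to reach it. The size depended on abundance. The median gene needed 2.2-fold at a mean above 100 normalized counts (350 genes), 2.47-fold at 20 to 100 (1301 genes), 3.91-fold at 4 to 20 (3144 genes) and 9.3-fold at 1 to 4 (2723 genes). Genes at a mean under 1 (6007 genes) needed 3.93-fold on the scale of the test, log2(normalized count + 0.5), which compresses differences between low values, so that figure is not a limit on their true change. At an unadjusted p of 0.05 the corresponding sizes were 1.28-fold above 100, 1.33-fold at 20 to 100, 1.54-fold at 4 to 20 and 2.02-fold at 1 to 4.

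**Figure D1:**
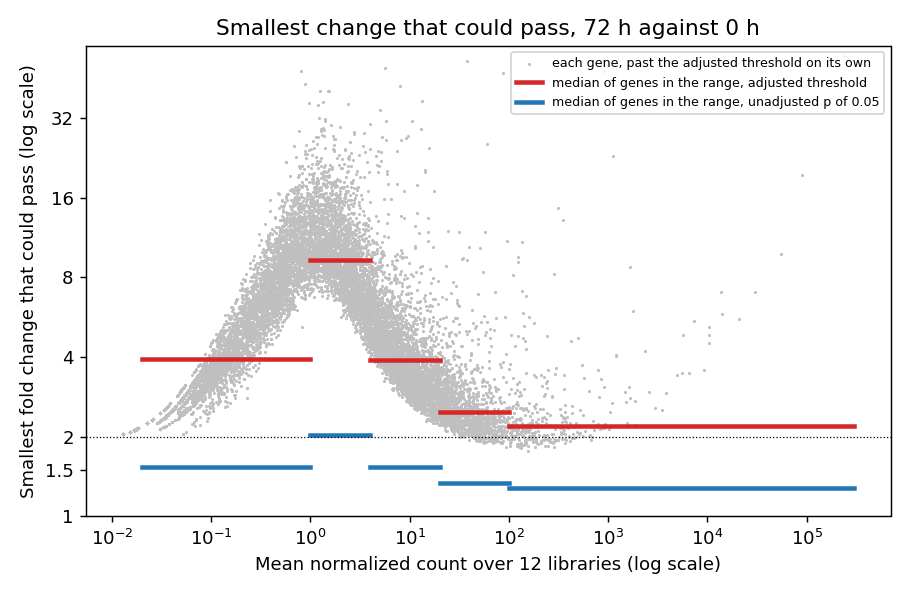
Smallest fold change between 0 and 72 h that a gene needed to pass the test on its own, on a log scale. The horizontal axis is the mean normalized count of the gene over 12 libraries, on a log scale. Grey points are single genes at the adjusted threshold, and lines are medians of 5 ranges of abundance at the adjusted threshold (red) and at an unadjusted p of 0.05 (blue). Between 1 and 4 normalized counts the median gene needed 9.3-fold, and above 100 it needed 2.2-fold.

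Most well measured genes could nevertheless be bounded. Among the 4795 genes whose mean reached 4 normalized counts, the 95% interval of the difference lay inside a 2-fold change for 3618 (75.5%), inside a 4-fold change for 4736 (98.8%) and inside a 1.5-fold change for 1163 (24.3%). This leaves 1177 of these genes for which a 2-fold change was not outside the interval, and 59 for which a 4-fold change was not. The interval lay inside a 2-fold change for 91.2% of genes at 20 to 100 normalized counts and for 9.4% at 1 to 4. The estimates were small. The median absolute log2 difference of the 4795 genes was 0.199, 57 of them had an estimate above 2-fold, and over all 13525 genes 3 had an estimate above 4-fold.

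The changes from 0 to 72 h were also compared between cows. Across the 1651 genes whose mean reached 20, the log2 ratios of cows 2 and 3 correlated with r = 0.262, those of cows 2 and 4 with r = 0.241 and those of cows 3 and 4 with r = 0.305 (Spearman's rho 0.14, 0.193 and 0.256). The same measure from 0 to 12 h was between 0.805 and 0.807, and from 0 to 24 h between 0.668 and 0.758. These are correlations across genes, which are not independent replicates, and are given as a description. Of the 1651 genes, 602 (36.5%) had the same direction in all 3 cows at 72 h. The spread of the ratios was wider in cow 4 (SD 0.557) than in cow 2 (SD 0.35) or cow 3 (SD 0.34), and the 0 h library of cow 4 was the shallowest. The part of depth in this spread was not tested.

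**Figure D2:**
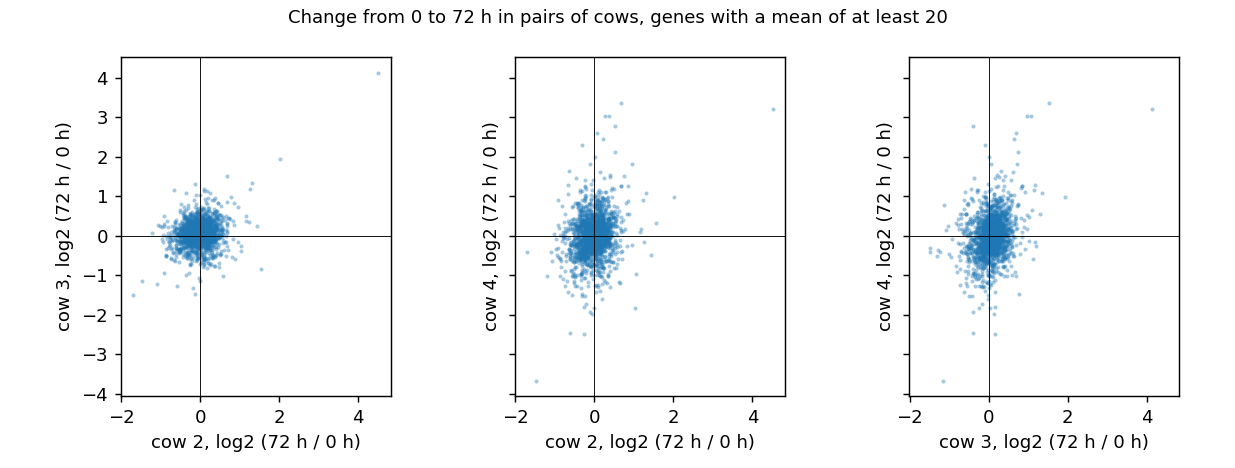
Log2 ratio of 72 h to 0 h in one cow against that in another for each pair of cows, with 1 point for each of the 1651 genes whose mean reached 20 normalized counts. The clouds are nearly round (r between 0.241 and 0.305), and cow 4 shows the widest spread of ratios (SD 0.557).

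The largest difference at 72 h was that of ENSBTAG00000015940. It had 54.2, 34.6 and 24.3 normalized counts at 0 h in cows 2, 3 and 4, and 1247, 613 and 228 at 72 h. Every 72 h library was above every 0 h library, with the order of the cows the same at both time points. The mean was 37.7 ± 15.2 normalized counts (SD, n = 3) at 0 h and 696 ± 514 at 72 h, a log2 difference of 3.95 with a standard error of 0.83 and a 95% interval from 2.19 to 5.71 (adjusted p = 0.494 in limma). The log2 ratios of the cows were 4.51, 4.13 and 3.21. With cow as a fixed term the standard error fell to 0.35 and the adjusted p was 1.6e-05 in limma, and the gene was also called by edgeR and DESeq2. It passed the threshold in 11 of 27 alternatives and did not in the others, including library scaling and pseudocount alternatives of the 12-library test. In cow 1, which has no 72 h library, the gene was already at 256 normalized counts at 0 h, above the 72 h level of cow 4. In cows 2 to 4 its log2 difference from 0 h was already 3.93 at 12 h (adjusted p = 0.0105 in limma). At 24 h it was 5.25 (adjusted p = 0.00173 in limma).

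ENSBTAG00000018481 was the least abundant of the genes described. It had 1.1, 2.71 and 0.579 normalized counts at 0 h in cows 2, 3 and 4, from 5, 9 and 1 reads, and 5.71, 11.1 and 3.76 at 72 h, from 14, 72 and 18 reads. The groups did not overlap. Its log2 difference was 1.93 (standard error 0.45, 95% interval 0.99 to 2.87, adjusted p = 0.494 in limma). The ratios of the single cows, 1.96, 1.86 and 1.98, were closer to each other than those of any other gene named. The cow 4 ratio rests on 1 read at 0 h, under the limit of 1.737 normalized counts of that library, so this closeness is uncertain. It was called with cow as a fixed term (adjusted p = 0.0478 in limma), in the paired 6 libraries (adjusted p = 0.00978 in limma) and by edgeR (adjusted p = 4.07e-04), and DESeq2 gave it no adjusted p.

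Among genes that were lower at 72 h, ENSBTAG00000009468 had the largest difference. It had 8.78, 10.2 and 19.1 normalized counts at 0 h and 2.85, 4.33 and 1.05 at 72 h, from 7, 28 and 5 reads. All 72 h libraries were below all 0 h libraries, and the gap was widest in cow 4. The log2 difference was -2.09 (standard error 0.42, 95% interval -2.99 to -1.20, adjusted p = 0.494 in limma), with ratios of -1.47, -1.15 and -3.67 in cows 2, 3 and 4. The gene was called by edgeR (adjusted p = 2.37e-10) and DESeq2 (adjusted p = 0.0202), and in the paired 6 libraries (adjusted p = 3.25e-06 in limma), but not with cow as a fixed term over 12 libraries (adjusted p = 0.065 in limma). At 12 h it had been at 137, 446 and 328 normalized counts, and at 24 h at 168, 187 and 331. The step from 12 to 72 h was itself past the threshold, with a log2 difference of -6.54 (adjusted p = 6.26e-08 in limma), and so was that from 24 to 72 h, at -6.23 (adjusted p = 2.74e-07 in limma). The 72 h level was thus below the level before DEX by the estimate, after higher levels at both times between.

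ENSBTAG00000015074 had 16.5, 19.3 and 16.8 normalized counts at 0 h and 5.71, 10.8 and 5.85 at 72 h. The 0 h libraries lay close together and all were above the 72 h libraries. The log2 difference was -1.23 (standard error 0.26, 95% interval -1.78 to -0.68, adjusted p = 0.494 in limma), and the gene was called by edgeR (adjusted p = 0.00501) and in the paired 6 libraries (adjusted p = 0.00158 in limma), but not with cow as a fixed term over 12 libraries (adjusted p = 0.18 in limma). At 12 h it was at 7.27, 8.82 and 7.01 normalized counts (log2 difference from 0 h -1.14, adjusted p = 0.0172 in limma), and at 24 h at 12.7, 11.7 and 18.9 (log2 difference -0.30, adjusted p = 0.697 in limma).

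**Figure D3:**
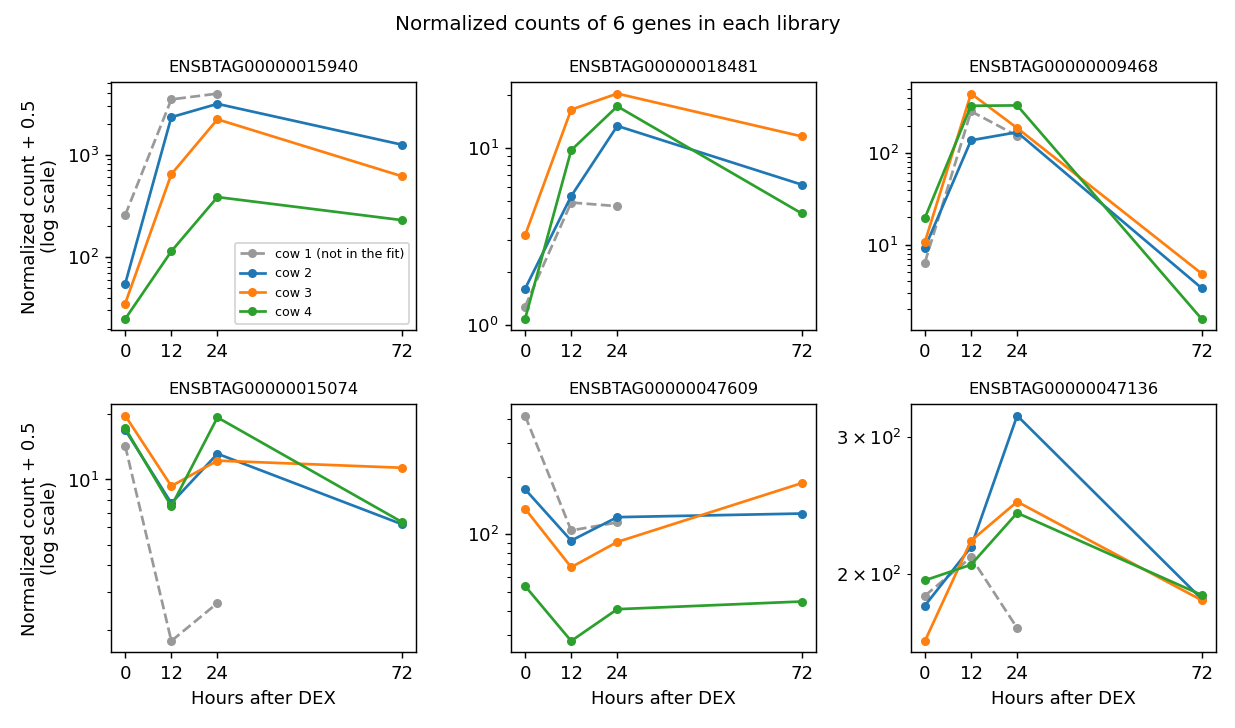
Normalized count + 0.5, on log axes, of 6 genes in each library against hours after DEX, with 1 line per cow. Cow 1 is dashed and has no 72 h library. In the 4 genes with the smallest p that are shown, the 72 h points of cows 2 to 4 all lie on one side of their 0 h points, and in ENSBTAG00000047609 and ENSBTAG00000047136 they overlap.

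The gene listed as ENSBTAG00000047136, which the study groups with translation genes, had 181.5, 163 and 196 normalized counts at 0 h and 185, 184 and 187 at 72 h. The groups overlapped, and the interval of the log2 difference, from -0.25 to 0.34, lay well inside a 2-fold change. ENSBTAG00000047609 had 172, 136 and 53.3 normalized counts at 0 h and 128, 185 and 44.1 at 72 h. Its interval was wider, from -1.17 to 1.01, and did not exclude a 2-fold difference in either direction. With cow as a fixed term over 12 libraries the interval was -0.45 to 0.28, and in the paired 6 libraries -0.39 to 0.23. Both of these lay inside a 2-fold change.

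Some genes without a printed identifier showed other courses. One gene had 387, 246 and 120 normalized counts at 0 h and 1559.5, 939.6 and 239 at 72 h in cows 2, 3 and 4. Its groups overlapped because the cows differed in level, while its ratios were 2.01, 1.93 and 0.99, and its log2 difference of 1.64 (standard error 0.67) had an adjusted p of 0.649 in limma and of 2.03e-04 with cow as a fixed term. Together with ENSBTAG00000015940 it was called by limma with cow as a fixed term, edgeR and DESeq2 alike. Another gene had 53.8, 98.1 and 73.5 normalized counts at 0 h and 134, 250.04 and 157 at 72 h. It was higher in every cow, by ratios of 1.31, 1.35 and 1.09 on the log2 scale. Its log2 difference of 1.25 (standard error 0.29) had an adjusted p of 0.494 in limma and of 0.169 with cow as a fixed term over 12 libraries, and it was called by edgeR (adjusted p = 1.66e-08), by DESeq2 (adjusted p = 6.59e-04) and in the paired 6 libraries (adjusted p = 3.24e-12 in limma). At 24 h it had been below 0 h by the estimate (log2 difference -1.05, adjusted p = 0.0732 in limma), and its step from 24 to 72 h was 2.30 (adjusted p = 1.66e-04 in limma).

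In some genes the difference rested mainly on cow 4. One gene went from 92, 82.4 and 72.4 normalized counts at 0 h to 119, 162 and 596 at 72 h. Another went from 46.7, 107 and 52.1 to 75.4, 308 and 535. In both, the ratio of cow 4 (3.03 and 3.35 on the log2 scale) was more than that of the other cows (0.37 and 0.97 in the first gene, 0.68 and 1.52 in the other). Neither passed in limma over 12 libraries (adjusted p = 0.532 for each, and 0.312 and 0.325 with cow as a fixed term), nor in DESeq2 (adjusted p = 0.0848 and 0.0775). Both were called in the paired 6 libraries (adjusted p = 8.4e-18 and 5.23e-29 in limma) and by edgeR (adjusted p = 3.28e-14 and 5.41e-24). The paired values rest on a variance shared by genes of the same abundance, not on the spread of these ratios. With a constant prior variance the paired test called 0 genes.

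The 10 genes with the smallest p among those higher at 72 h in all 3 cows, and the 10 among those lower, are given as a description. The 10 higher genes had log2 differences from 0.98 to 3.95, and in 8 of them the groups did not overlap. The 10 lower genes had differences of smaller size, from 0.61 to 2.09 below 0 h on the log2 scale, and in all 10 the groups did not overlap. Over all genes tested, the groups did not overlap in 1075 (7.95%), and in those whose mean reached 4 in 553 (11.5%). Both lists were picked by p and direction from these same values. The lack of overlap in them thus follows largely from the choice and cannot be read against these shares. The ratio of cow 4 was the largest of the 3 cows in 7 of the higher and 6 of the lower genes.

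Pairing the libraries by cow removed the differences in level between cows, which were large in several genes, and gave 66 calls in limma, 42 higher and 24 lower at 72 h. In 36 of the 66 genes the groups did not overlap, and in 55 the direction was the same in all 3 cows, so that 11 were called although 1 cow went the other way. The ratio of cow 4 was the largest in 50 of them. Without cow 4 there were 17 calls, 14 of them among the 66, against 61 without cow 2 and 57 without cow 3. The count rested on how the spread was estimated. With 2 residual degrees of freedom in each gene, limma moderated the variances so strongly that all genes of the same abundance shared essentially a single variance, with 25240 total degrees of freedom. With a prior variance that did not follow abundance, a setting added, as was the robust prior that follows, after these calls had been seen, the total was 6.7 degrees of freedom, the smallest adjusted p was 0.144 and 0 genes were called by limma, with 727 at an unadjusted p under 0.05. With a robust prior there were 58 calls, 48 of them among the 66. Of the 66 genes, 42 were also called by edgeR, 18 by DESeq2, 13 by both, and 19 by neither of them nor by the fixed cow term over 12 libraries.

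**Figure D4:**
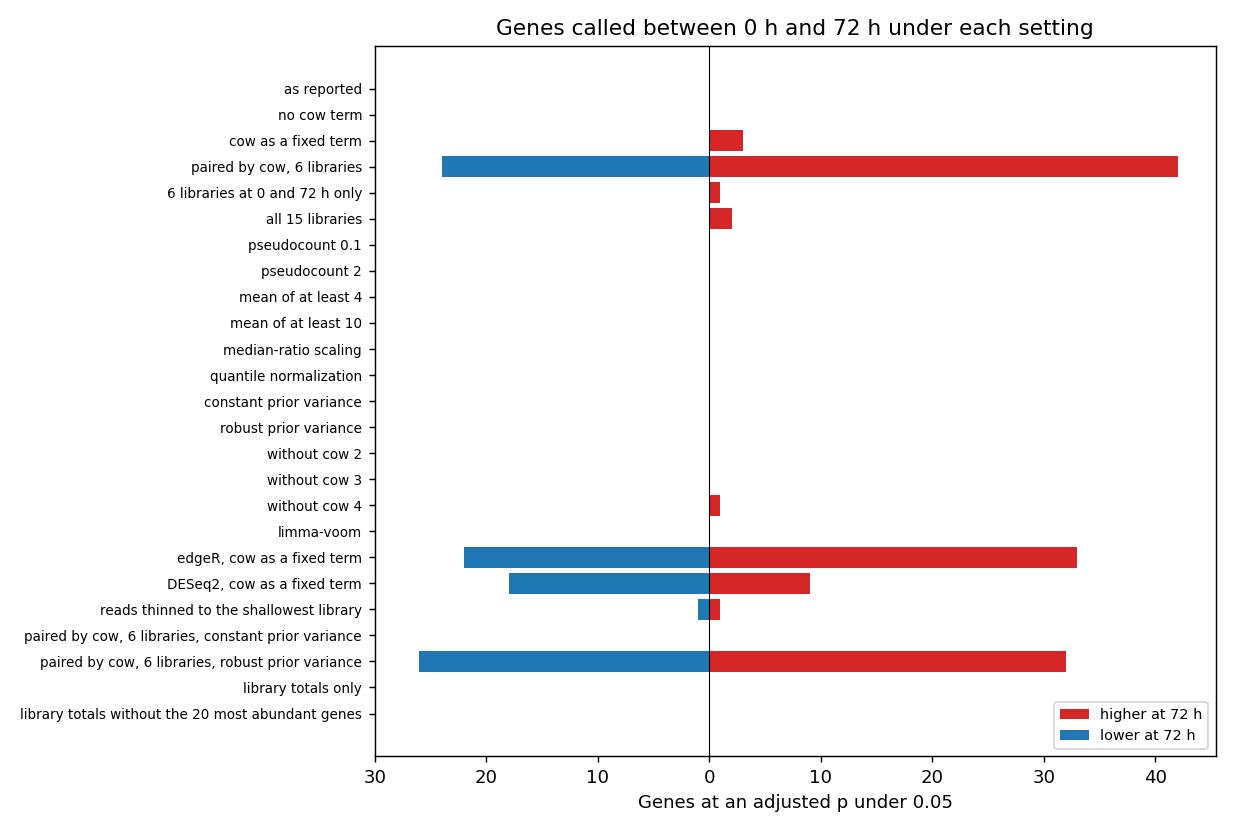
Number of genes past an adjusted p of 0.05 between 0 and 72 h under each setting, with genes higher at 72 h to the right (red) and lower to the left (blue). The paired 6-library test gave 42 higher and 24 lower genes, edgeR 33 and 22, and DESeq2 9 and 18, while the test as reported gave 0.

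The most abundant genes had lower normalized counts at 72 h. Of the 20 genes with the highest mean, a set chosen after the values had been seen, all 20 were lower by the estimate, with log2 differences from -0.758 to -0.114 and a median of -0.402, against a median of 0.024 over the 4795 genes whose mean reached 4. In 12 of the 20 the direction was the same in all 3 cows, in 6 the groups did not overlap, and 3 had an unadjusted p under 0.05 in limma. The median over the 20 genes was -0.332 for cow 2, the same for cow 3, and -0.566 for cow 4. Over all genes above 100 normalized counts the groups did not overlap in 23.1% and 14% had an unadjusted p under 0.05, shares that lie near those of the 20 genes. The median of the 20 genes needed 5.01-fold to pass alone, or 2.14-fold in the paired 6 libraries, and the interval over 12 libraries lay inside a 2-fold change for 4 of them. Standard errors in these tests also draw on a variance shared by genes of similar abundance. These sizes, intervals and p-values thus do not measure the spread of the 20 genes alone. The most abundant gene had 287200 ± 19500 normalized counts (SD, n = 3) at 0 h and 226300 ± 35100 at 72 h. Its log2 standard error over 12 libraries was 0.901. Among the other 330 genes above 100 normalized counts, 205 (62.1%) were lower by the estimate, with 37 lower and 9 higher at an unadjusted p under 0.05, while at 20 to 100 normalized counts 555 of 1301 (42.7%) were lower.

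How far these genes lay below 0 depended on the scaling. The 20 genes took 81.8%, 82.2% and 82.1% of the normalized counts in cows 2, 3 and 4 at 0 h, and 81.4%, 77.9% and 77.6% at 72 h. The deposited totals, relative to CPM, carried factors of 1.011, 1.044 and 1.044 at 0 h and of 0.962, 0.88 and 0.782 at 72 h, since the scaling sets the bulk of genes level. With library totals alone, the median gene moved by 0.261 on the log2 scale, the median of the 20 genes was -0.157 with 15 of them lower, and relative to the median gene the 20 genes were thus still lower. In that setting 2 of the genes above 100 were lower and 61 higher at an unadjusted p under 0.05. Quantile normalization gives every library the same distribution. It largely removes a joint shift of the most abundant genes by construction, so its result cannot decide whether they shifted. With it the median of the 20 genes was -0.0468 with 13 lower. Without cow 4, under the deposited scaling, the median was -0.304 with 19 lower. The number of genes above 100 that were lower at an unadjusted p under 0.05 in limma, 40, was 7 without cow 4, against 9 and 5 higher. The scaling factor, the share of the 20 genes and the time point moved together, and their part in these differences was not tested.

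**Figure D5:**
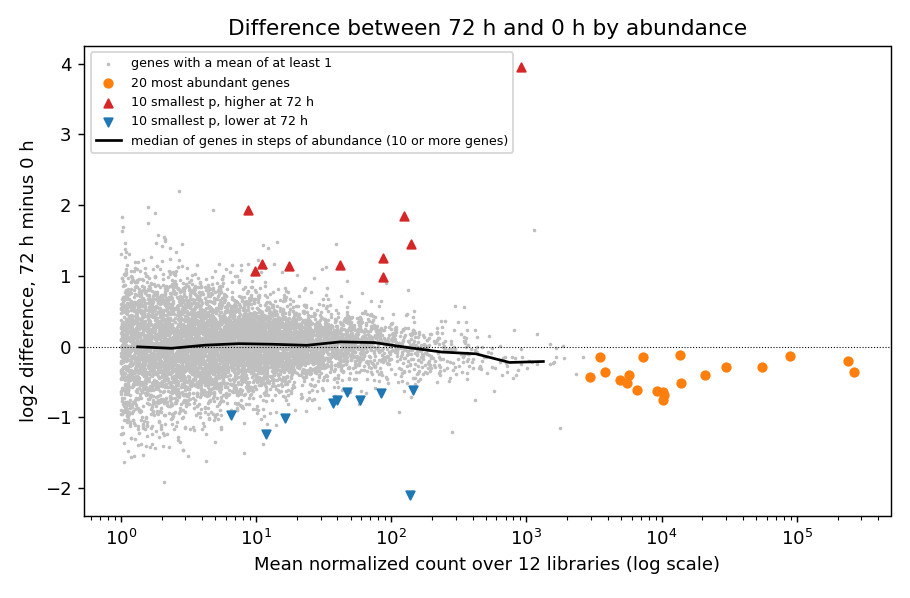
Log2 difference between 72 h and 0 h of each gene whose mean reached 1 normalized count, against its mean over 12 libraries on a log scale. The black line is the median in steps of abundance, the 20 most abundant genes (orange) all lie below 0, and triangles are the 10 genes with the smallest p in each direction.

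The 72 h libraries were then set against the earlier time points directly. Between 12 and 72 h, 490 genes (3.62% of 13525) passed the threshold in limma, 192 higher and 298 lower at 72 h, and between 24 and 72 h 482 genes (3.56%) did, 159 higher and 323 lower. The comparisons of 12, 24 and 72 h with 0 h share the 0 h libraries, so their values are given side by side only. The SD of the log2 differences over the 4795 genes whose mean reached 4 was 0.346 at 72 h, 0.642 at 12 h and 0.562 at 24 h. For the 525 genes called at 12 h (3.88%), the median absolute log2 difference from 0 h was 1.34 at 12 h and 0.249 at 72 h, and the 72 h interval lay inside a 2-fold change for 330 of them (62.9%). For 429 of the 525 the change seen at 12 h was smaller than the size that could have passed alone at 72 h. These 429 genes were nevertheless called at 12 h, with the same standard errors, because many genes passed together. The size for passing alone is therefore not a limit on what could be called jointly. For the 312 genes called at 24 h (2.31%), the medians were 1.25 at 24 h and 0.228 at 72 h, and the interval lay inside a 2-fold change for 210 (67.3%).

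Cow 1 allowed genes to be chosen without the libraries of this comparison. A set of 63 genes was 4-fold or more higher at 12 h than at 0 h in cow 1. In cows 2 to 4 their median log2 difference was 2.19 at 12 h and -0.0106 at 72 h, with quartiles of -0.354 and 0.349, and 31 of the 63 were higher at 72 h. Another 47 genes were 4-fold or more lower at 12 h in cow 1, and their medians in the other cows were -1.51 at 12 h and -0.178 at 72 h, with quartiles of -0.473 and 0.0857. Of these 47 genes, 30 were lower at 72 h. For the 66 genes higher at 24 h in cow 1 the medians were 1.37 at 24 h and 0.0897 at 72 h, and for the 90 genes lower at 24 h they were -0.715 and -0.0361. An unadjusted p under 0.05 at 72 h in limma was reached by 15.9%, 17.0%, 19.7% and 18.9% of these sets in turn, against 7.59% of the 4796 genes whose mean in cow 1 reached 4. In the first set 3 of those genes were higher and 7 lower. None of the 4 sets held a gene past the adjusted threshold at 72 h in limma, and their median genes needed between 4.18-fold and 5.62-fold to pass alone.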

How the data were processed

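RNA from needle biopsies of 4 cows was sequenced as 15 QuantSeq libraries, whose reads start near the 3′ end of transcripts. The authors trimmed the reads, aligned them with STAR 2.6.0c to UMD3.1 (per the submitters' processing notes), counted them per Ensembl gene and deposited normalized counts, a scaled signal. The scaling is not named in the sources used here, but TMM factors of edgeR differed from it by at most 8.03e-09%. Division of each value by the worth of 1 read gave the reads, and 100% of values were whole within 0.05. Libraries held 1804120 to 6228132 reads. The limit for a gene with no read is 3 reads, which covers counting error only.

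Differences were tested with limma 3.58.1 (R 4.3.3), with a variance trend, on log2(normalized count + 0.5). Cows 2 to 4 gave 12 libraries, and the model held the time point, a within-cow correlation (consensus 0.0179) and Benjamini-Hochberg adjustment at a threshold of 0.05. Genes at 0 in these libraries could not be tested, which left 13525 of 24616. The smallest change that could pass is the standard error times the t quantile, at 0.05 divided by the number of genes tested or at 0.05 unadjusted. The first is the size for a gene that passes alone. Cow 1 was taken as the animal removed from the study, since it alone lacks 72 h. Libraries of a cow come from the same animal. Deviations from the time point means at 0 and 72 h correlated with r = 0.446, 0.51 and 0.384 within cows and -0.30 to -0.128 between cows (1651 genes). The means were taken over the same 3 cows, so the negative values between cows follow in part from the positive ones within cows. P-values measure the spread between single libraries of 3 cows. In limma over 12 libraries that spread came from all 4 time points. It was moderated towards a variance shared by genes of the same abundance, with 17.02 total degrees of freedom. In the paired 6 libraries the p-values rest mainly on such a shared variance.

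Alternatives were 19 planned and 8 chosen after seeing the data, with edgeR 4.0.16 (55 genes called) and DESeq2 1.42.0 on the recovered reads. In edgeR and DESeq2 cow was a fixed term. The scripts were tested on simulated data. Genes described were the 10 with the smallest p in each direction (mean over the 6 libraries of 4 normalized counts or more, same direction in 3 cows), those called by at least 2 of limma with cow as a fixed term, edgeR and DESeq2 (19 genes), and 2 identifiers the study prints. Further genes and sets were chosen after their values were seen. The members and lists were chosen with earlier results of these data known. Gene lists and cell type markers written by symbol were not analysed here, because 0 identifiers matched a symbol.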

Additional observations from a re-analysis of the deposited data

Results flagged for a closer look

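At 0 h, where 4 cows were sampled, cow 1 stood apart from cows 2 to 4 in 3 of 13 groups of values examined, as judged by the gap to the nearest cow divided by the range of the group, which exceeded the critical value of Dixon's test. Chance would give about 0.65 such groups if the groups had been picked without regard to their values. Several of the genes were chosen by their values and the groups are not independent, so this figure is a rough guide only. The 20 most abundant genes took 84.4% of its normalized counts, where cows 2 to 4 had 81.8% to 82.2%, a gap over range of 0.867. The factor by which its total was scaled was 1.255, where the others had 1.011 to 1.044, a gap over range of 0.865. ENSBTAG00000015940 was at 256 normalized counts in cow 1, where the others had 24.3 to 54.2, a gap over range of 0.871. Cow 1 has no 72 h library and entered no test of 72 h against 0 h other than the 15-library alternative.

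The difference from 0 h at 72 h was itself tested against that at the earlier times. It differed from the one at 12 h in 490 genes and from the one at 24 h in 482 genes in limma.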

How the results depend on the processing

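With the replicate block as a fixed cow term, 3 genes were called in limma over 12 libraries and 66 over the 6 paired libraries, where a robust prior variance gave 58. There were 55 genes in edgeR, 27 in DESeq2, 2 with all 15 libraries, 2 after thinning reads to the shallowest library and 1 in the 6 libraries with a within-cow correlation. Leaving out a cow gave 0 to 1 genes, or, in the paired 6 libraries, 61, 57 and 17 without cows 2, 3 and 4, and 15 of 27 alternatives gave 0. The 931 genes at an unadjusted p under 0.05 became 397 at a mean of at least 4, 258 at a mean of at least 10, 572 in limma-voom, 370 in DESeq2, 1479 with library totals only (86.7% higher against 54.2%) and 482 to 896 without a cow (615 in the paired libraries without cow 4). The 7256 genes with an interval inside a 2-fold change became 3700 with a pseudocount of 0.1, 12271 with 2, 3671 and 2554 at means of at least 4 and 10, 3616 in limma-voom, 3099 in DESeq2, 4344 after thinning 4341 to 5125 without a cow and 2810, 2674 and 3825 in the paired libraries without cows 2, 3 and 4. The smallest change that could pass alone, a median of 2.13 on the log2 scale, was 1.68 in the paired 6 libraries, 4.23 there with a constant prior variance and 1.67 with a robust one. It was 3.46 with a pseudocount of 0.1, 1.41 with 2, 1.61 and 1.34 at means of at least 4 and 10, 2.53 with a constant prior variance, 2.71 in limma-voom, 4.05 in DESeq2, 2.5 after thinning 2.97 to 3.49 without a cow and 2.44, 2.91 and 2.46 in the paired libraries without cows 2, 3 and 4. Pseudocounts and filters change which low genes are counted and how far their differences are compressed. Leaving out a cow went with a larger smallest change in both the 12 and the paired 6 libraries. The paired 6 libraries nevertheless gave a smaller one than the 12. The cause of these and the other changes was not tested. Of the genes described, those with estimates close to 0 changed sign. The log2 difference of ENSBTAG00000047609, -0.08, was 0.161 with library totals only, 0.0876 without cow 2, -0.345 without cow 3 and 0.0112 without cow 4, and that of ENSBTAG00000047136, 0.05, ranged from -0.0173 without cow 3 to 0.101 without cow 4. The values without a cow were the same in the paired libraries. The other described genes kept their sign in all alternatives in which they were tested. Medians of gene lists by symbol could not be computed, and edgeR gave no intervals.

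Depth limits genes under about 4 normalized counts, where cow 4 at 0 h sets the limit of detection. Each call rests on 3 cows with a single biopsy per gland, and on glands that differ with time.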
